A study of Mus musculus with 4 samples.

Results

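The genes of sterol and fatty acid synthesis that SREBP transcription factors drive were followed in ILC1s of the mouse. These type 1 innate lymphoid cells live in tissues and are close kin of natural killer cells. The members were the 29 genes of a fixed list of enzymes, regulators and 1 sterol carrier, matched by gene name, and all 29 were found among the 40481 genes of the table. They were kept apart as a sterol arm of 18 enzymes, a group of 4 regulators with the carrier Stard4, and a fatty acid arm of 6 enzymes. RNA was sequenced from ILC1s selected by surface CD49a. The libraries labelled knockout (3 and 4, n = 2) came from mice with the genotype Ncr1-iCre Inpp4b flox/flox. The control libraries (1 and 2, n = 2) came from Inpp4b flox/flox mice, so all 4 libraries carried the floxed Inpp4b alleles. An effect of the transgene itself and one of losing Inpp4b cannot be told apart. The transgene is named after Ncr1, the gene of the receptor NKp46 that ILC1s and natural killer cells share. Only control library 1 carries a tissue label, which is liver, and neither the age of the mice nor any pooling was given in the sources used here.

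SREBP precursors sit in the endoplasmic reticulum bound to the escort protein SCAP. When membrane sterols are low, the complex leaves for the Golgi, where proteases free the transcription factor. When sterols are plentiful, INSIG proteins hold SCAP back. SREBP2, from Srebf2, mainly drives cholesterol synthesis and SREBP1, from Srebf1, mainly drives fatty acid synthesis. In lymphocytes the pathway is known for supplying membrane during growth and activation, downstream of AKT and mTORC1. The series asks whether the phosphatase INPP4B, which acts upstream of AKT, sustains ILC1s.

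Library totals ranged from 42380840 to 54125080 counts in the libraries labelled knockout and from 48491980 to 54878210 in controls. Levels are given as TMM-scaled CPM, that is, counts relative to each library's scaled total. Whole-gene Inpp4b transcripts were at 142.5 and 86.0 CPM in the libraries labelled knockout and at 78.7 and 106.5 CPM in controls (edgeR adjusted p = 0.828). A count over the whole gene cannot show whether part of it was deleted. Defining ILC1 genes were present, with a summed level over 10 markers of 6659 and 6842 CPM in the libraries labelled knockout and 6742 and 7015 CPM in controls. Within this list Ncr1 was at 1202 and 1077 CPM in the libraries labelled knockout and at 1672 and 1772 CPM in controls (log2 fold change -0.60, edgeR adjusted p = 0.28, DESeq2 adjusted p = 0.0149), so DESeq2 called it lower and edgeR did not. Markers of some other cells differed between the groups. The 9 tested of 10 Kupffer cell and macrophage markers summed to 771.9 and 722.9 CPM in the libraries labelled knockout and 80.5 and 106.6 CPM in controls. Lyz2 made up most of this sum, at 626.0 and 582.5 CPM in the libraries labelled knockout and 43.1 and 71.5 CPM in controls. In 6 of the 9 both libraries labelled knockout lay above both controls, against 19.5% of all genes. In 1, Clec4f, a Kupffer cell gene, both lay below, against 20.8% of all genes. Clec4f was at 4.79 and 0.676 CPM in the libraries labelled knockout and 5.69 and 4.80 CPM in controls. Of the 10, Marco and Vsig4 had 0 counts in knockout library 3 and control library 1, and Cd163 had 0 in every library but knockout library 3. The 8 tested of 10 monocyte and dendritic cell markers summed to 2197 and 2787 CPM in the libraries labelled knockout and 949.5 and 1055 CPM in controls. Cd74 and Itgax made up most of this sum. Cd74 was at 1008 and 1473 CPM in the libraries labelled knockout and 220.1 and 288.0 CPM in controls. Itgax was at 510.2 and 538.3 CPM in the libraries labelled knockout and 479.6 and 492.3 CPM in controls. In 7 of the 8 both libraries labelled knockout lay above both controls, against 19.5% of all genes, and in 0 both lay below, against 20.8%. Clec9a had 0 counts in both libraries labelled knockout, and Flt3 had 0 in library 3. The 9 tested of 10 T cell markers summed to 2431 and 3324 CPM in the libraries labelled knockout and 2013 and 1961 CPM in controls. Cd3g made up most of that sum, and several less abundant T cell genes differed more. Trac was at 85.1 and 200.9 CPM in the libraries labelled knockout and at 7.31 and 5.67 CPM in controls (log2 fold change 4.46, edgeR adjusted p = 0.0489), and Cd3e at 152.5 and 371.0 CPM in the libraries labelled knockout and at 26.5 and 15.1 CPM in controls (edgeR adjusted p = 0.095). In 7 of the 9 both libraries labelled knockout lay above both controls, against 19.5% of all genes. In 1, Trbc1, both lay below, against 20.8% of all genes. Trbc1 was at 389.5 and 425.2 CPM in the libraries labelled knockout and at 442.9 and 615.5 CPM in controls. Cd8b1 overlapped between the groups, with a log2 fold change of -1.07. The 10 hepatocyte markers summed to 176.7 and 170.7 CPM in the libraries labelled knockout and 172.2 and 105.9 CPM in controls. The 4 tested of 6 neutrophil markers summed to 250.01 and 168.04 CPM in the libraries labelled knockout and 102.4 and 97.5 CPM in controls. Mmp9 made up most of it, at 242.9 and 153.5 CPM in the libraries labelled knockout and 101.9 and 94.4 CPM in controls. In 3 of the 4 both libraries labelled knockout lay above both controls, against 19.5% of all genes. S100a8 had 11 and 0 counts in the libraries labelled knockout and 19 and 1 in controls. S100a9 had 0 counts in every library but control library 1, which had 10. Retnlg had 0 counts in every library. For the 5 tested of 6 B cell markers the sum was 651.4 and 804.65 CPM in the libraries labelled knockout and 717.8 and 1045.5 in controls. All 5 overlapped between the groups. The 5 tested of 8 endothelial and stellate markers summed to 86.6 and 95.9 CPM in the libraries labelled knockout and 66.4 and 93.6 CPM in controls. Pecam1 made up most of it, at 65.3 and 66.6 CPM in the libraries labelled knockout and 56.0 and 81.2 CPM in controls. In 2 of these 5 both libraries labelled knockout lay above both controls, against 19.5% of all genes, and in 0 both lay below, against 20.8%. The part of these other cells in the results below was not tested. In such bulk libraries, fewer cells of a type and less RNA per cell cannot be told apart.

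Promoters of 23 members stood in the RefSeq table (GRCm38.p6), each running from 250 bases before to 50 bases after a start site. Fdps, Fdft1, Sqle, Stard4, Scd1 and Scd2 had no entry. The promoters of 4 members are shown because they span the range of the arms: Idi1 and Cyp51 lay among the sterol enzymes with the largest positive differences, Hmgcs1 carried the only match among the members to TCACNCCAC, and Fasn had a negative difference. Capitals mark TCACNCCAC or CACCCCAC (a sterol regulatory element motif) and CCAAT (the motif of the factor NF-Y, a known partner of SREBP), on either strand, so that CCAAT also appears as ATTGG.
Idi1, chr13:8885356-8885655, plus strand: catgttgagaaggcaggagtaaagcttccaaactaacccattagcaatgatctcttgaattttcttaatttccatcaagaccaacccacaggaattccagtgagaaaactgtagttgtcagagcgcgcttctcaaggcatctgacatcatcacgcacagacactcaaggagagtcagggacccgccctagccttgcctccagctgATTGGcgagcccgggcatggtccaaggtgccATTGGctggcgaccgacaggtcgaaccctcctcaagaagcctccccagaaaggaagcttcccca
Cyp51, chr5:4104648-4104947, minus strand: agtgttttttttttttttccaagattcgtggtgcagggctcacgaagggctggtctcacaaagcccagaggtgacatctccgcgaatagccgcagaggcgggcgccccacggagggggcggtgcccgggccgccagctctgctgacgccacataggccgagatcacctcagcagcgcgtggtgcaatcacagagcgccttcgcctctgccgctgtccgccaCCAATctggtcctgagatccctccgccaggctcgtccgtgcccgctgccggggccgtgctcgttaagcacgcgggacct
Hmgcs1, chr13:119690101-119690400, plus strand: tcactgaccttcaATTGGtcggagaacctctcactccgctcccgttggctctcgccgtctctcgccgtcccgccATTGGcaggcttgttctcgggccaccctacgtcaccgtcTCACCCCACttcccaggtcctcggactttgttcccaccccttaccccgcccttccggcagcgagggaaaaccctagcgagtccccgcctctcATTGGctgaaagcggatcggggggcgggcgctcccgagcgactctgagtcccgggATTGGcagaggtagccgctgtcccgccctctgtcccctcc
Fasn, chr11:120824498-120824797, minus strand: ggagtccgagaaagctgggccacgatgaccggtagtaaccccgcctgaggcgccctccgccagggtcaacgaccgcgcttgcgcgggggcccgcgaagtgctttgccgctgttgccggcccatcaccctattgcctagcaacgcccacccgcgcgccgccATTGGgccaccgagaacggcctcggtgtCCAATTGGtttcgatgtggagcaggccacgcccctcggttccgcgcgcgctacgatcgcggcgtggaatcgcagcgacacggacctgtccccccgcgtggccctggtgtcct
In the Fasn promoter, a CCAAT and an ATTGG overlap. CCAAT was found in promoters of 14 of 15 sterol enzymes, 3 of 4 regulators and 2 of 4 fatty acid enzymes that had an entry, against 41.1% of the 27025 genes in the table. The only Acaca entry, chr11:84195188-84195487, held no CCAAT and lies inside the gene, whose annotated start at 84129672 was not searched. TCACNCCAC, searched on both strands, was found in Hmgcs1 alone among the members and in 1.44% of all genes, and the shorter CACCCCAC in Hmgcs1 and Acat2 and in 3.3% of all genes. Both motifs overlap in Hmgcs1. The E-box CACGTG was found in 5 of the 23 members and 8.09% of all genes. These are matches of letters in short windows, and no binding was measured.

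All 29 members passed the filter on low counts, and Acly and Ebp had the highest levels per length. Per kb of annotated exon (GENCODE M21, mm10), Acly, which makes cytosolic acetyl-CoA from citrate for both arms, stood at 48.0 and 58.8 CPM per kb in the libraries labelled knockout and at 49.8 and 59.1 CPM per kb in controls. Ebp, the sterol isomerase, came next with means of 42.2 ± 5.76 in the libraries labelled knockout and 40.8 ± 8.46 CPM per kb in controls (SD, n = 2 each). Acly lay above Ebp in every library. Insig1, at 19.5 ± 6.71 in the libraries labelled knockout and 24.7 ± 9.50 CPM per kb in controls, and Acat2, at 29.9 ± 1.93 in the libraries labelled knockout and 21.7 ± 1.69 CPM per kb in controls, followed and overlapped in the controls. The lowest was Acaca, which encodes acetyl-CoA carboxylase 1, at 0.336 ± 0.00113 in the libraries labelled knockout and 0.551 ± 0.0133 CPM per kb in controls. Tm7sf2, a sterol reductase gene, had 0.821 ± 0.652 in the libraries labelled knockout and 0.810 ± 0.493 CPM per kb in controls, and Scd1, a stearoyl-CoA desaturase gene, 1.14 ± 0.0955 in the libraries labelled knockout and 0.833 ± 0.0158 CPM per kb in controls. Member counts ran from 68 for Tm7sf2 in knockout library 3 to 16072 for Acly in knockout library 4.

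**Figure D1:**
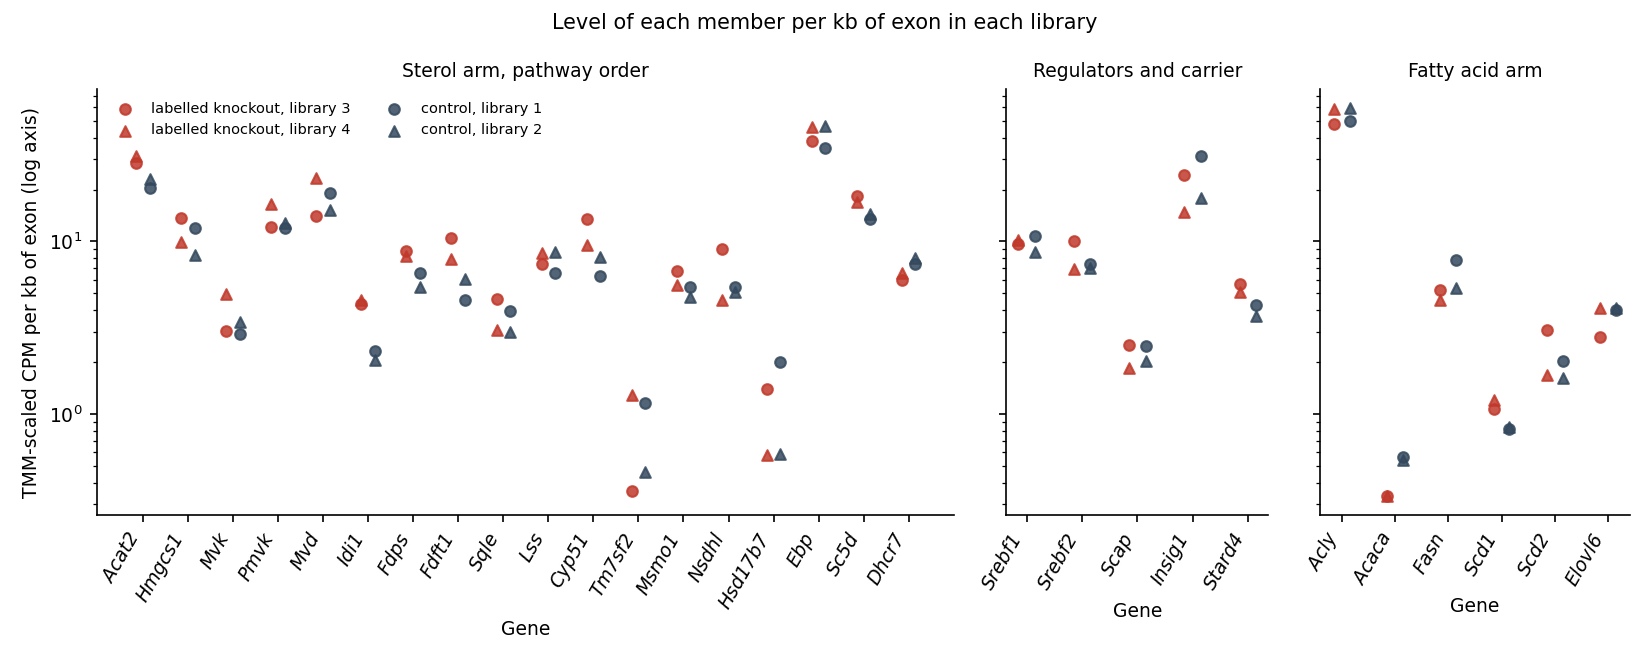
Each point is the level of 1 member in 1 library, in TMM-scaled CPM per kb of annotated exon on a log axis, with the libraries labelled knockout in red to the left of the controls in dark blue. Acly and Ebp lie highest, and Acaca, Tm7sf2, Hsd17b7 and Scd1 lowest, in both groups.

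Most sterol enzymes had somewhat higher levels in the libraries labelled knockout, but none of them passed the test. Of 18 sterol enzymes, 16 had a log2 fold change (labelled knockout over control) above 0, with a median of 0.24, against a median of -0.01 and 48.7% above 0 over the 14863 genes tested. edgeR called 0 of the 18 at an adjusted p under 0.05, where 0.155% of all genes were called, and limma-voom called 0 as well, as did DESeq2, which called 2.9% of all genes. Before adjustment p was under 0.05 for 4 higher ones, against 4.48% of all genes, and for 0 lower ones, against 5.17%. In 7 of the 18 both libraries labelled knockout lay above both controls, against 19.5% of all genes, and in 1 both lay below, against 20.8%. The summed level of the arm was 740.0 and 728.9 CPM in the libraries labelled knockout and 599.8 and 631.8 CPM in controls. Leaving out 1 library changed the split. When knockout library 4 was dropped, 11 enzymes lay above 0 and 7 below, with a median of 0.37. Dropping knockout library 3 left 13 above and 5 below, dropping control library 2 left 12 above and 6 below, and dropping control library 1 left 15 above and 3 below, with a median of 0.38. The summed macrophage, dendritic cell and T cell markers given above were higher in the same libraries.

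**Figure D2:**
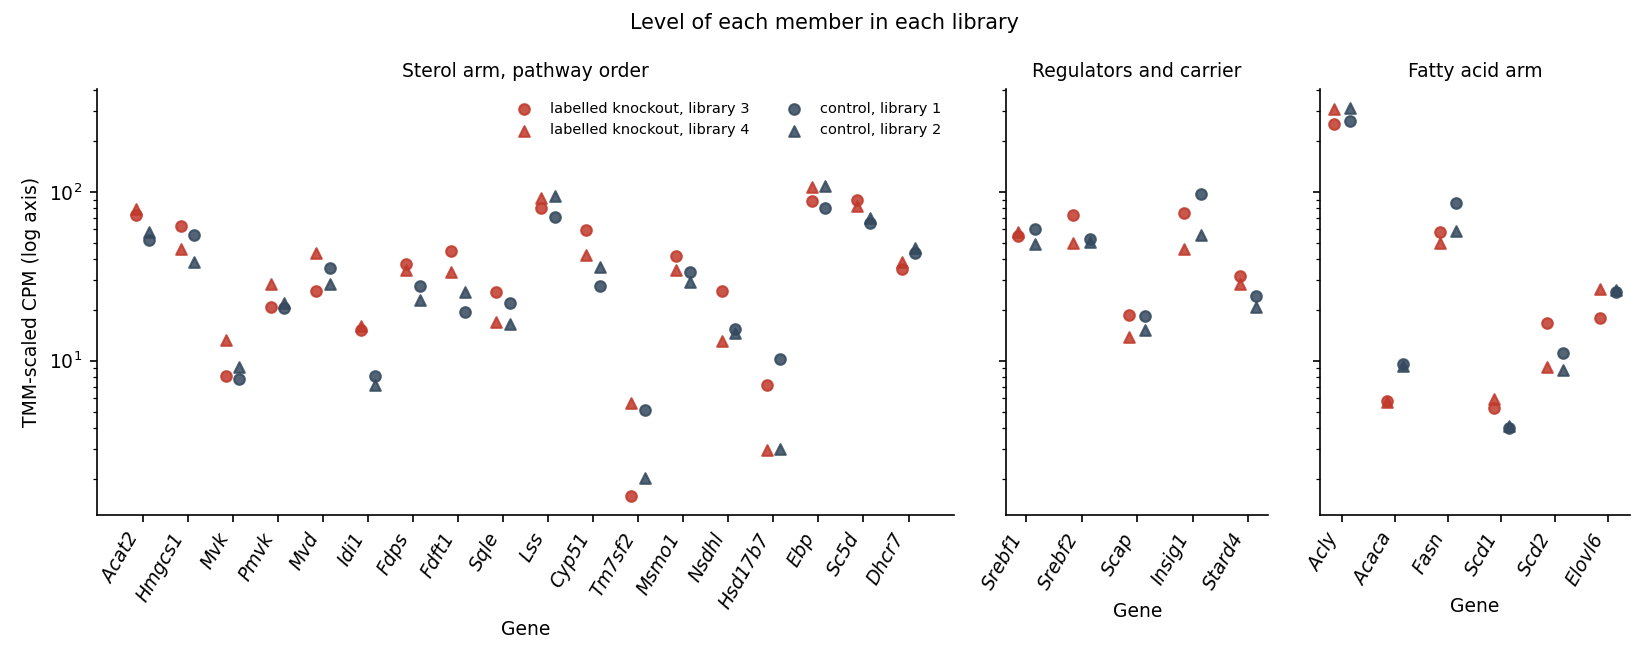
Each point is the level of 1 member in 1 library, in TMM-scaled CPM on a log axis, with the libraries labelled knockout in red to the left of the controls in dark blue. Idi1, Fdft1, Cyp51 and Acat2 show no overlap between the groups, with the libraries labelled knockout higher, while Acaca shows the opposite order.

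In the first steps, from acetyl-CoA to the isoprenoid units, Idi1 stood furthest apart. Idi1 (ENSMUSG00000058258, mm10 chromosome 13, 8885501 to 8892451, plus strand) encodes the isomerase that interconverts the isoprenoid building blocks. It was at 15.2 and 16.1 CPM in the libraries labelled knockout and at 8.12 and 7.22 CPM in controls. The groups did not overlap, and the gap between them exceeded that between the libraries of either group. The log2 fold change was 1.03 (SE 0.30, 95% interval 0.30 to 1.76, edgeR adjusted p = 0.379), and DESeq2 gave an adjusted p of 0.0892. The opposite strand of 9.2% of the Idi1 exon bases belongs to Gm48574, and the strand setting of the counting was not given. Acat2 (ENSMUSG00000023832, chromosome 17, 12942890 to 12960747, minus strand) encodes the thiolase that joins acetyl-CoA units at the start of the route. Acat2 was at 72.7 and 79.7 CPM in the libraries labelled knockout and at 52.1 and 58.2 CPM in controls, again without overlap (0.47, SE 0.17, edgeR adjusted p = 0.476). Fdps, the farnesyl diphosphate synthase gene, was at 37.3 and 34.4 CPM in the libraries labelled knockout and at 27.7 and 22.8 CPM in controls (0.51, SE 0.23, edgeR adjusted p = 0.557). Of the annotated exon bases of Fdps, 26.7% also belong to Gm43738 on the same strand, so its value is uncertain. The remaining mevalonate genes overlapped between the groups. Hmgcs1, the HMG-CoA synthase gene, was at 62.6 and 45.7 CPM in the libraries labelled knockout and at 55.2 and 38.5 CPM in controls (0.21, SE 0.26, edgeR adjusted p = 0.909). The kinase genes Mvk and Pmvk and the decarboxylase gene Mvd had log2 fold changes from 0.12 to 0.33. Without knockout library 4 these were -0.087 for Mvk, -0.058 for Pmvk and -0.32 for Mvd. Mvd was also -0.021 without control library 2, and Hmgcs1 was -0.062 without knockout library 3 and -0.026 without control library 2.

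Of the genes that build and close squalene, Fdft1 differed most. Fdft1 (ENSMUSG00000021273, chromosome 14, 63145150 to 63179578, minus strand) encodes squalene synthase, the first step committed to sterols. It was at 44.3 and 33.6 CPM in the libraries labelled knockout and at 19.3 and 25.6 CPM in controls. The groups did not overlap, though the log2 ratio was 0.40 between knockout libraries 3 and 4 and -0.41 between control libraries 1 and 2. The log2 fold change was 0.80 (SE 0.27, 95% interval 0.14 to 1.45, edgeR adjusted p = 0.423). The opposite strand of 18.3% of its exon bases belongs to Ctsb, a cathepsin gene abundant in macrophages, and the strand setting of the counting was not given. Ctsb was at 938.4 and 1189 CPM in the libraries labelled knockout and at 660.2 and 820.5 CPM in controls (edgeR adjusted p = 0.436), and its part in the Fdft1 counts was not tested. Sqle, the squalene epoxidase gene, was at 25.7 and 17.0 CPM in the libraries labelled knockout and at 22.1 and 16.5 CPM in controls (0.15, SE 0.32, edgeR adjusted p = 0.962). Lss, the lanosterol synthase gene, was at 79.9 and 92.0 CPM in the libraries labelled knockout and at 70.6 and 94.4 CPM in controls (0.06, SE 0.20, edgeR adjusted p = 0.983). In Sqle and Lss the groups overlapped. Without knockout library 3 the log2 fold change of Sqle was -0.20, and without control library 1 that of Lss was -0.14.

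Among the 8 enzymes that turn lanosterol into cholesterol, values pointed in different directions. Cyp51 (ENSMUSG00000001467, chromosome 5, 4081145 to 4104746, minus strand), the lanosterol demethylase gene, was at 59.5 and 42.2 CPM in the libraries labelled knockout and at 27.9 and 35.8 CPM in controls. The groups did not overlap (0.68, SE 0.26, 95% interval 0.05 to 1.30, edgeR adjusted p = 0.487). The opposite strand of 3.8% of the Cyp51 exon bases belongs to Akap9. Sc5d, a sterol desaturase gene, was at 88.9 and 81.9 CPM in the libraries labelled knockout and at 65.3 and 70.0 CPM in controls (0.34, SE 0.16, edgeR adjusted p = 0.581). Msmo1, the methylsterol oxidase gene, was at 41.4 and 34.5 CPM in the libraries labelled knockout and at 33.4 and 29.4 CPM in controls (0.27, SE 0.22, edgeR adjusted p = 0.801). Dhcr7, which encodes the reductase that makes cholesterol from its last precursor in one branch of the route, was 1 of 2 with a log2 fold change below 0. It was at 34.7 and 38.2 CPM in the libraries labelled knockout and at 43.2 and 46.4 CPM in controls (-0.29, SE 0.20, edgeR adjusted p = 0.733). Both libraries labelled knockout lay below both controls. Ebp differed by 0.05 (SE 0.20, 95% interval -0.45 to 0.54). Nsdhl, a sterol dehydrogenase gene, was at 25.9 CPM in knockout library 3 but 13.1 CPM in knockout library 4, against 15.5 and 14.5 CPM in controls, and without knockout library 3 its log2 fold change was -0.22. Tm7sf2 and Hsd17b7, a sterol ketoreductase gene, were both low and spread widely within each group, with log2 fold changes of 0.02 for Tm7sf2 (95% interval -1.85 to 1.88) and -0.39 for Hsd17b7 (95% interval -2.10 to 1.33). Leaving out 1 library moved both to either side of 0.

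The regulators differed less than their spread. Srebf1 was at 54.8 and 57.5 CPM in the libraries labelled knockout and at 60.6 and 48.9 CPM in controls (0.04, SE 0.19, 95% interval -0.43 to 0.50, edgeR adjusted p = 0.99). Srebf2 was at 72.8 and 49.5 CPM in the libraries labelled knockout and at 52.8 and 50.4 CPM in controls (0.24, SE 0.23, edgeR adjusted p = 0.836). The difference rested on knockout library 3, without which it was -0.08. Scap had a log2 fold change of -0.05 (SE 0.30). Insig1, which is both the brake on SCAP and itself an SREBP target, was at 74.9 and 45.6 CPM in the libraries labelled knockout and at 97.2 and 55.6 CPM in controls (-0.34, SE 0.34, edgeR adjusted p = 0.85). The value without control library 1 was 0.11. Stard4, a soluble carrier of cholesterol and a known SREBP2 target, was at 31.8 and 28.4 CPM in the libraries labelled knockout and at 24.0 and 20.7 CPM in controls, without overlap (0.43, SE 0.24, edgeR adjusted p = 0.653). edgeR called 0 of these 5 genes, and DESeq2 and limma-voom called 0, against 0.155% of all genes with edgeR and 2.9% with DESeq2. Before adjustment 0 were under 0.05, against 4.48% of all genes higher and 5.17% lower.

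The fatty acid arm had no common direction. Of 6 enzymes, 2 had a log2 fold change above 0 and 4 below, with a median of -0.13. The median was -0.29 without knockout library 4, -0.069 without knockout library 3 and -0.050 without control library 2, with 3 above and 3 below 0 without either of the last 2 libraries. The summed level was 356.4 and 408.0 CPM in the libraries labelled knockout and 399.0 and 419.3 CPM in controls. In 1 of the 6 both libraries labelled knockout lay above both controls, against 19.5% of all genes, and in 2 both lay below, against 20.8%. edgeR called 0 of the 6, and DESeq2 and limma-voom called 0, against 0.155% of all genes with edgeR and 2.9% with DESeq2. Before adjustment 0 were under 0.05, against 4.48% of all genes higher and 5.17% lower. Acaca (ENSMUSG00000020532, chromosome 11, 84129672 to 84401651, plus strand), whose product commits acetyl-CoA to fatty acid synthesis, was at 5.75 and 5.72 CPM in the libraries labelled knockout and at 9.57 and 9.25 CPM in controls. The groups did not overlap and the libraries within each lay close together. The log2 fold change was -0.71 (SE 0.35, 95% interval -1.55 to 0.12, edgeR adjusted p = 0.582). Fasn (ENSMUSG00000025153, chromosome 11, 120805846 to 120824547, minus strand), the fatty acid synthase gene, was at 57.5 and 50.1 CPM in the libraries labelled knockout and at 85.9 and 58.8 CPM in controls (-0.43, SE 0.23, edgeR adjusted p = 0.634). The libraries labelled knockout lay below both controls, but without control library 1 the difference was -0.13. Acly, upstream of both, differed by -0.03 (SE 0.17, 95% interval -0.43 to 0.38).

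The desaturases lay on the other side of zero. Scd1 was at 5.24 and 5.89 CPM in the libraries labelled knockout and at 4.02 and 4.13 CPM in controls, without overlap (0.45, SE 0.41, edgeR adjusted p = 0.828). Scd2, the related desaturase gene, was at 16.7 and 9.16 CPM in the libraries labelled knockout and at 11.04 and 8.85 CPM in controls (0.38, SE 0.39, edgeR adjusted p = 0.863), and without knockout library 3 it was -0.14. Elovl6, which elongates palmitate, was at 17.96 and 26.5 CPM in the libraries labelled knockout and at 25.7 and 26.3 CPM in controls (-0.23, SE 0.28, edgeR adjusted p = 0.907). Hepatocytes express Scd1 strongly. Of the 10 hepatocyte markers, both libraries labelled knockout lay above both controls in 3 (Alb, Serpina1a and Hp) and below both in 0. The shares over all genes were 19.5% above and 20.8% below. The other 7 overlapped between the groups, and 3 of the 10 had a log2 fold change below 0. Hp, the haptoglobin gene, was at 23.8 and 17.6 CPM in the libraries labelled knockout and at 6.81 and 3.13 CPM in controls (edgeR adjusted p = 0.277, DESeq2 adjusted p = 0.000692), and Alb, the albumin gene, was at 28.6 and 25.1 CPM in the libraries labelled knockout and at 24.99 and 24.05 CPM in controls. The part of hepatocyte RNA in the Scd1 level was not tested.

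**Figure D3:**
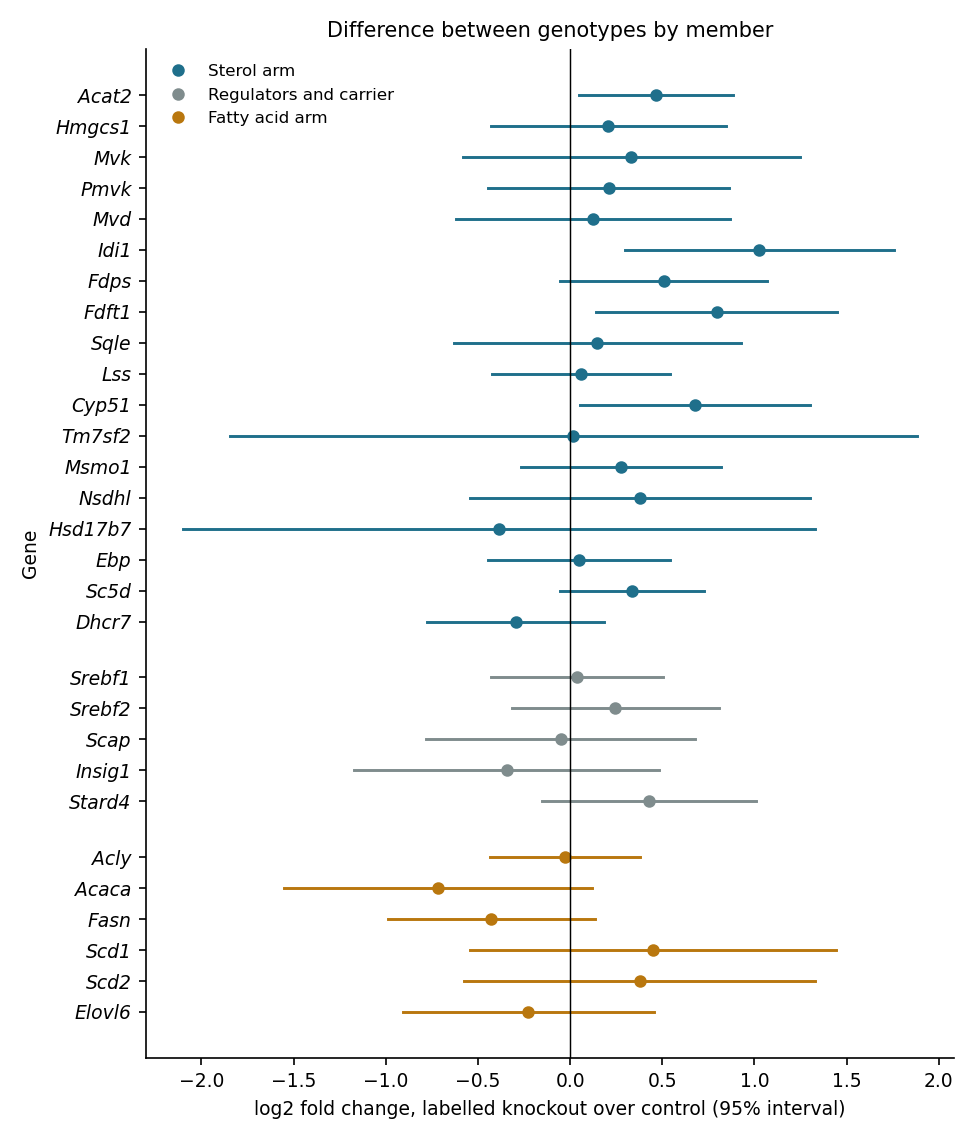
Points are log2 fold changes of the libraries labelled knockout over control from edgeR, and lines are 95% intervals, for 18 sterol enzymes, 5 regulators and carrier, and 6 fatty acid enzymes (n = 2 each). The intervals of Idi1, Fdft1, Cyp51 and Acat2 lie above 0 before adjustment for multiple testing, and Tm7sf2 and Hsd17b7 have the widest intervals.

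Libraries of the same group often differed by more than the groups did, in the members as in most genes tested. In 18 of the 29 members the log2 gap between the libraries of at least 1 group exceeded the fold change between groups, against 73.5% of all genes. Of the 18 sterol enzymes, 9 were higher in knockout library 3 and 9 in library 4. In controls 9 were higher in library 1 and 9 in library 2. Of the 5 regulators and carrier, 4 were higher in knockout library 3, and 5 in control library 1. Some known SREBP2 targets were among those higher in knockout library 3. The log2 ratio of library 3 over 4 was 0.72 for Insig1, 0.59 for Sqle, 0.45 for Hmgcs1 and 0.55 for Srebf2. In controls the log2 ratio of library 1 over 2 was 0.81 for Insig1, 0.42 for Sqle, 0.52 for Hmgcs1 and 0.07 for Srebf2. Mvk, Mvd and Pmvk ran the other way in the libraries labelled knockout, with ratios of -0.70, -0.74 and -0.45. Hsd17b7 had the widest gap in the controls, at 1.77. Over all members 16 of 29 were higher in knockout library 3 than in 4, against 50.6% of all genes, and 17 of 29 were higher in control library 1 than in 2, against 46.5%.

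**Figure D4:**
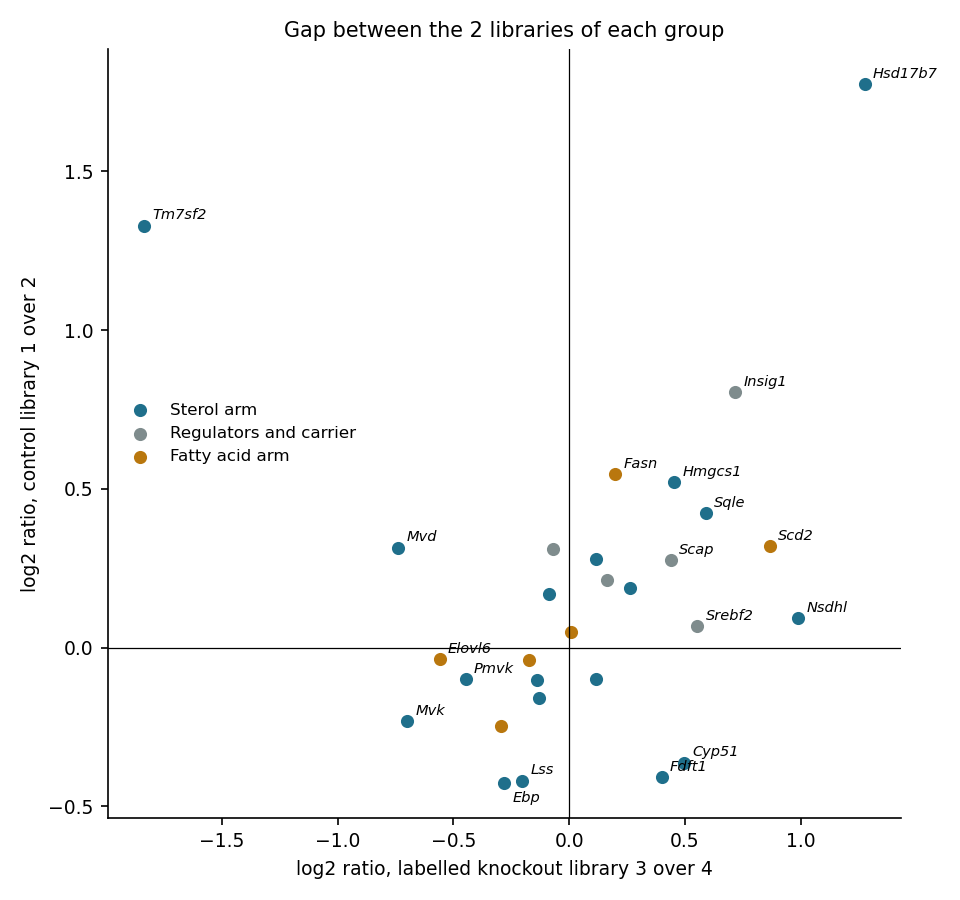
Each point is 1 member, with the log2 ratio of knockout library 3 over 4 on the x axis and that of control library 1 over 2 on the y axis. Insig1, Sqle, Hmgcs1 and Hsd17b7 lie to the upper right, Tm7sf2 to the upper left, and Fdft1 and Cyp51 to the lower right.

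Other genes of the same routes were read from a fixed list. Of 15 further sterol genes 14 were tested and edgeR called 0, as did DESeq2, against 0.155% and 2.9% of all genes. Before adjustment p was under 0.05 for 1 higher and 1 lower gene, against 4.48% and 5.17% of all genes. The gene that was higher was Npc2, whose product hands cholesterol out of lysosomes, at 313.6 and 388.0 CPM in the libraries labelled knockout and 239.7 and 254.6 CPM in controls (0.51, SE 0.16, edgeR adjusted p = 0.395). The gene that was lower was Mbtps2, which encodes the site-2 protease that frees SREBP. Mbtps2 was at 6.42 and 11.7 CPM in the libraries labelled knockout and at 14.7 and 21.1 CPM in controls (-0.98, SE 0.40, edgeR adjusted p = 0.515). Cyp27a1, a sterol hydroxylase gene, had the next smallest p, with 85 and 47 counts in the libraries labelled knockout and 30 and 2 counts in controls (edgeR adjusted p = 0.649). Of 19 further genes of fatty acid synthesis and activation 18 were tested. edgeR and DESeq2 called 0 of them. Before adjustment p was under 0.05 for 1 higher and 0 lower genes, against the same shares of all genes. That gene was Mid1ip1, which encodes an activator of acetyl-CoA carboxylase, at 13.7 and 18.5 CPM in the libraries labelled knockout and at 9.88 and 6.90 CPM in controls (0.94, SE 0.35, edgeR adjusted p = 0.479). Me1, the malic enzyme gene, had 10 and 219 counts in the libraries labelled knockout and 19 and 1 counts in controls, so 1 library set its difference. Acsl1, an acyl-CoA synthetase gene, was at 26.8 and 10.7 CPM in the libraries labelled knockout and at 14.6 and 10.5 CPM in controls (edgeR adjusted p = 0.804).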

How the data were processed

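The deposited table gave raw counts of reads for each Ensembl gene, with a column for each of the 4 libraries, and no per-sample column was left unused. Per the submitters' processing notes, the tools were bcl2fastq, STAR, featureCounts of Subread, and DESeq2, with the mm10 assembly. Their roles, the gene annotation and the strand setting are not given in the sources used here, so reads of overlapping genes could not be told apart. Besides the overlaps given above, another gene shared 12.1% of the exon bases of Hmgcs1, 12.1% of Tm7sf2 and 13.2% of Scap. Per the labels' protocols, RNA was made into SMARTer low-input libraries for NovaSeq sequencing. The 276 repeated lines, identical in counts, were dropped from 40757. After filterByExpr and TMM scaling, genotype was tested as a single term in edgeR 4.0.16 (robust quasi-likelihood test, two-sided, 2 residual degrees of freedom; R 4.3.3), with Benjamini-Hochberg adjustment over 14863 genes at a threshold of 0.05. DESeq2 1.42.0 and limma 3.58.1 (voom) were alternatives. The chi-square per degree of freedom between replicates was 89.6 in the libraries labelled knockout and 98.5 in controls, far above sampling noise. The labels do not name separate animals, so the p-values reflect only the spread among these libraries, which could be technical. The members and lists were chosen with earlier results of these data known, so no list was given a test. All members are reported, and other genes were named by the smallest p, up to 3 per list. Ctsb and the marker genes with values were picked outside it, with their values known. Gene positions and exon lengths came from GENCODE M21 and promoters from RefSeq.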

Additional observations from a re-analysis of the deposited data

How the results depend on the processing

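The sample titles number the libraries 1 to 4, while the deposited column names number them 1 and 2 in each group, and columns were matched to titles by the sample number. Nothing says that libraries with the same column number belong together. Over 14863 genes, the difference between column numbers 1 and 2 in the libraries labelled knockout had a correlation of 0.0709 with that in controls. A replicate block by these numbers, chosen after seeing the data, left 1 residual degree of freedom and gave 0 genes called over the whole table (1709 under 0.05 before adjustment), medians of 0.24 and -0.14 for the sterol and fatty acid arms, and -0.10 for Tm7sf2. With this block, 14 alternatives all called 0 members, and over 406 recomputed member values 34 had the opposite sign and 0 passed the threshold. The direction of 12 members held throughout, among them Idi1, Fdft1, Cyp51, Acat2, Acaca and Fasn. The number of genes called over the whole table, 23 with edgeR, was 423 with DESeq2, 563 without a filter on low counts, 49 with at least 50 counts in 2 libraries, 0 with edgeR without other-cell, ribosomal and mitochondrial genes (1414 under 0.05 before adjustment), and 0 to 18 when 1 library was left out (18 without knockout library 3, 0 without knockout library 4, where 1452 were under 0.05 before adjustment, 3 without control library 1 and 1 without control library 2). A group left with 1 library was assumed to vary like the other. The other-cell genes left out included Lyz2, Csf1r, H2-Aa, H2-Ab1, Cd74 and Trac, which edgeR had called in the main fit. The fall to 0 called genes in that setting was therefore partly fixed by leaving them out. The sterol median was 0.20 with library totals alone and 0.28 to 0.38 when 1 library was left out, and the fatty acid median -0.29 to -0.050. Leaving out 1 library turned 17 members, with log2 fold changes of -0.21 to 0.10 for Acly, -0.15 to 0.28 for Ebp, -0.56 to 0.0046 for Elovl6, -0.062 to 0.49 for Hmgcs1, -1.19 to 0.76 for Hsd17b7, -0.77 to 0.11 for Insig1, -0.14 to 0.29 for Lss, -0.32 to 0.42 for Mvd, -0.087 to 0.62 for Mvk, -0.22 to 0.76 for Nsdhl, -0.058 to 0.40 for Pmvk, -0.31 to 0.12 for Scap, -0.14 to 0.72 for Scd2, -0.20 to 0.38 for Sqle, -0.11 to 0.20 for Srebf1, -0.081 to 0.47 for Srebf2 and -1.21 to 0.83 for Tm7sf2. Outside these, Acly was 0.0012 with upper-quartile factors, and Srebf1 was -0.014 with library totals. Tm7sf2 was -0.074 with library totals, -0.0066 without a filter, -0.028 with the stricter filter and -0.096 with limma-voom. The causes were not tested.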

Other observations

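Genes that burn fatty acids were measured beside those that make them. Of 15 genes of fatty acid oxidation, all tested, edgeR and DESeq2 called 0, against 0.155% and 2.9% of all genes. Before adjustment p was under 0.05 for 0 higher and 1 lower genes, against 4.48% and 5.17% of all genes. The lower one was Acadl, the long-chain acyl-CoA dehydrogenase gene, at 35.02 and 37.8 CPM in the libraries labelled knockout and at 56.1 and 52.6 CPM in controls (log2 fold change -0.58, SE 0.19, edgeR adjusted p = 0.416). Hadha, a subunit gene of the trifunctional protein, was at 160.9 and 154.0 CPM in the libraries labelled knockout and at 111.0 and 135.8 CPM in controls (edgeR adjusted p = 0.557). Slc25a20, the carnitine carrier gene, was at 65.5 and 66.8 CPM in the libraries labelled knockout and at 45.5 and 54.8 CPM in controls (edgeR adjusted p = 0.565). Both libraries labelled knockout lay above both controls in 6 of the 15 genes and below both in 3, against 19.5% and 20.8% of all genes.

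Of 7 genes around the sterol sensor LXR and sterol efflux, edgeR and DESeq2 called 0, against 0.155% and 2.9% of all genes. Before adjustment 0 were under 0.05, against 4.48% of all genes higher and 5.17% lower. Apoe, an apolipoprotein gene of macrophages and hepatocytes, had the smallest edgeR p of the 7. It was at 221.5 and 89.2 CPM in the libraries labelled knockout and at 78.3 and 16.8 CPM in controls (edgeR adjusted p = 0.536). Abcg1, a sterol efflux pump gene, was at 862.6 and 1252 CPM in the libraries labelled knockout and at 1144 and 1423 CPM in controls (edgeR adjusted p = 0.782). Mylip, which encodes a ligase that degrades the LDL receptor family, was at 67.5 and 47.3 CPM in the libraries labelled knockout and at 82.6 and 54.8 CPM in controls (edgeR adjusted p = 0.867).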
